A study of Mus musculus with 6 samples.

Results

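Vwf-positive endothelial cells of the liver were examined in liver non-parenchymal cells (LNPCs), the liver cells other than hepatocytes, by single-cell RNA sequencing. A cell was kept if it had fewer than 5000 genes detected and less than 5% of its unique molecular identifiers (UMIs, the counted RNA molecules) on mitochondrial genes. It was taken as a Vwf endothelial cell if it held at least 2 UMIs of Vwf and at least 2 summed UMIs of the endothelial genes Cdh5, Pecam1 and Egfl7, and if that sum was larger than the summed UMIs of the macrophage genes C1qa, C1qb and C1qc. Of 27544 kept cells, 8743 passed the endothelial part of this rule and 489 of these passed the Vwf part, which was 1.78% of the kept cells and 5.59% of the endothelial-gated cells. The other 8254 endothelial-gated cells, with 0 or 1 Vwf UMI, served as the comparator. Cells were chosen by their Vwf UMIs, so the level of Vwf is a description of the choice and was not tested.

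All mice were male C57BL/6J animals that were 8 weeks old when obtained and were fed a high-fat diet (HFD) for 24 weeks to produce nonalcoholic steatohepatitis (NASH). During the last 8 weeks, vehicle-treated mice received DMSO and ginkgetin-treated mice received ginkgetin, a plant biflavone, at 10 mg/kg/day, both into the stomach. Each group had 3 libraries, and no chow-fed library was analysed here. The sources do not say whether each library came from a separate mouse or from a pool, so p-values measure only the spread between these libraries.

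Vwf encodes von Willebrand factor, the multimeric glycoprotein that endothelial cells store in granules and that captures platelets at sites of vessel injury. The liver carries blood from the portal vein and the hepatic artery through fenestrated sinusoids to the central veins. The sinusoidal cells hold scavenger receptors such as stabilin-2, whereas the continuous endothelium of arteries, portal veins and central veins is the usual site of Vwf. In arterial endothelium, Notch signalling through ligands such as Jag1 and Dll4 goes together with the gap junction protein connexin 40, encoded by Gja5, and with the vasoconstrictor peptide endothelin-1, encoded by Edn1. In venous endothelium, the nuclear receptor Nr2f2 (COUP-TFII) acts against the arterial programme.

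The Vwf endothelial cells numbered 105, 31 and 90 in vehicle replicates 1 to 3 and 23, 138 and 102 in ginkgetin replicates 1 to 3. Their median depth was 4291, 4697 and 8142 UMIs per cell in the vehicle libraries and 3659, 3779 and 8741 in the ginkgetin libraries, above the median of the other endothelial-gated cells in every library. Summed over its Vwf endothelial cells, a library gave 105382 to 952987 UMIs, so that ginkgetin replicate 1 and vehicle replicate 2 were the thinnest. Replicate 3 of both groups used another set of cell barcodes and a newer set of gene symbols than replicates 1 and 2, and its counts stood apart from those of its group (chi-square per degree of freedom 8.73 to 23.3, against 1.79 and 2.19 between replicates 1 and 2). Whole libraries held 13128697 to 61796882 UMIs, 258 barcodes occurred in more than 1 library, and none of the barcodes of the Vwf endothelial cells was shared between libraries. T cells, which should lack Vwf, gave a measure of free RNA: 30 of 4313 cells gated as T cells had a Vwf UMI and 4 had 2 or more.

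The label was checked against the arterial genes Gja5, Jag1 and Edn1, which the rule did not use but which were chosen as markers of these cells with earlier results known. Gja5 was detected in 46.7%, 48.4% and 48.9% of the Vwf endothelial cells of the vehicle libraries and in 52.2%, 50.7% and 74.5% of those of the ginkgetin libraries, against 0.9% to 3.2% of the other endothelial-gated cells. Jag1 was detected in 62.9%, 48.4% and 71.1% of the cells in the vehicle libraries and in 69.6%, 72.5% and 89.2% in the ginkgetin libraries, against 5.0% to 15.9% of the others. Edn1 was detected in 43.8%, 67.7% and 28.9% and in 43.5%, 58.7% and 54.9% of the cells, respectively, against 1.2% to 11.9%. All 3 genes were therefore more often detected in the Vwf endothelial cells in each of the 6 libraries. Sinusoidal genes were present as well. Stab2, encoding stabilin-2, was detected in 10.5% to 51.1% of the Vwf endothelial cells against 64.4% to 77.3% of the others, whereas Clec4g, encoding a sinusoidal C-type lectin, was detected in 77.4% to 93.3% against 78.4% to 92.6%. The marker genes thus went with the label, but the chosen cells were not free of sinusoidal RNA.

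The start sites of these marker genes are shown because the 3 genes were detected together in the chosen cells. Windows from RefSeq (GRCm38.p6, 250 bases before the annotated start, 5′ to 3′ on the strand of the gene) were found for 3 of the 4 marker genes. Vwf itself lies at chr6:125552948-125686679. Capitals mark ACAAT on either strand, the core letters bound by SOX factors. TGGGAA, the letters bound by the Notch effector RBPJ, and TGATAA, bound by GATA factors, were also searched on both strands.

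Gja5, chr3:97032152-97032401, plus strand: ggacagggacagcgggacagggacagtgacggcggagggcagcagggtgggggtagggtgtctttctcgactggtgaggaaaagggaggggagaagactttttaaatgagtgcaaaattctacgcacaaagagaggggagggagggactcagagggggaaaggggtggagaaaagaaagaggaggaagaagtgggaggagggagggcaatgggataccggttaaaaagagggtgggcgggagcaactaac
Jag1, chr2:137116521-137116770, minus strand: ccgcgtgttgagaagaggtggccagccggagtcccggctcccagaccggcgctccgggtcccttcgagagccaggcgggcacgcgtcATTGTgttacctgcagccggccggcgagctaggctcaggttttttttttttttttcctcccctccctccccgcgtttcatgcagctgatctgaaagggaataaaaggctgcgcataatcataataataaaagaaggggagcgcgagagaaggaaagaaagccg
Edn1, chr13:42301226-42301475, plus strand: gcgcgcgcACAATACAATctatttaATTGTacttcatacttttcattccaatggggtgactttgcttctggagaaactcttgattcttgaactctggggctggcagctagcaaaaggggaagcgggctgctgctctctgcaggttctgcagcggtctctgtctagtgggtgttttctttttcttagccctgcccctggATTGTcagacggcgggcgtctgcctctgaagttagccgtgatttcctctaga

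The Edn1 window held ACAAT 4 times, the Jag1 window held it 1 time and the Gja5 window did not hold it. Across 32851 windows of the same length, 27.7% held ACAAT at least once, 21.6% held TGGGAA and 7.94% held TGATAA, and neither TGGGAA nor TGATAA was found in the 3 windows shown. These matches describe the letters of the windows and say nothing of binding.

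Levels differed with the number of Vwf UMIs in a cell, although not in even steps. Grouping the endothelial-gated cells by their Vwf UMIs gave 7851 cells with 0, 403 with 1, 157 with 2, 147 with 3 or 4, 108 with 5 to 9 and 77 with 10 or more. Just outside and just inside the rule, the median level of Gja5 over the libraries was 115 CPM (UMIs of the gene per 1000000 summed UMIs) at 1 Vwf UMI and 152 CPM at 2. In the cells without Vwf it was 4.6 CPM, and in those with 10 or more it was 329 CPM. Jag1 went from 27.9 CPM without Vwf to 175 CPM at 1 UMI, 273 CPM at 2 UMIs and 403 CPM at 10 or more. Edn1 reached 353 CPM at 2 UMIs and was at 366 CPM at 10 or more. Within the chosen cells the arterial genes did not rise throughout: from 3 or 4 to 5 to 9 Vwf UMIs, Jag1 went from 384 to 289 CPM, Edn1 from 375 to 274 CPM and Gja5 from 236 to 229 CPM. The medians at 10 or more UMIs are over 5 libraries, since ginkgetin replicate 1 had no such cell, and vehicle replicate 2 had 1. The sinusoidal genes ran the other way. Stab2 had a median of 675 CPM without Vwf, 319 CPM at 1 UMI, 152 CPM at 2 UMIs and 54.2 CPM at 10 or more. The summed level of the sinusoidal genes dropped from 7305 to 1286 CPM, and Clec4g from 1735 to 463 CPM. The cells with 1 Vwf UMI lay between the cells without Vwf and the chosen cells for the 3 arterial genes and for Stab2. These are descriptions: deeper cells reach a given number of Vwf UMIs more easily, and the part of depth was not tested.

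**Figure D1:**
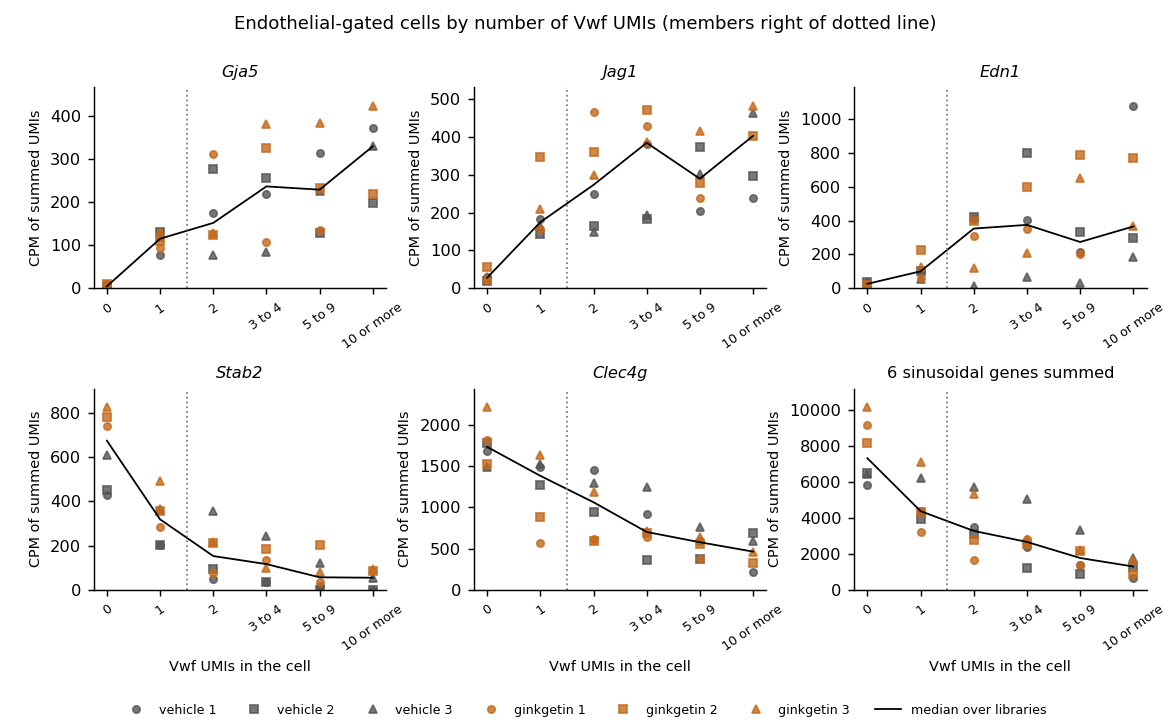
Levels of Gja5, Jag1, Edn1, Stab2, Clec4g and the 6 summed sinusoidal genes (y axis, CPM of summed UMIs) in endothelial-gated cells grouped by their number of Vwf UMIs (x axis), with the chosen cells right of the dotted line. Points are libraries, grey for vehicle and orange for ginkgetin, and lines are medians over the libraries with cells in that bin, which are 5 at 10 or more UMIs. Gja5 went from 4.6 CPM without Vwf to 329 CPM at 10 or more UMIs, and Stab2 from 675 to 54.2 CPM.

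To ask which vessel programmes the Vwf endothelial cells carried, UMIs were summed per library over the 489 cells and over the 8254 others and compared by edgeR with the library as a block, and a gene was called if its p-value, adjusted by Benjamini-Hochberg, was under 0.05 and its fold exceeded 2. Of 8921 genes tested, 297 were higher (3.33%) and 441 lower (4.94%) in the Vwf endothelial cells. Called higher were 8 of 11 large-vessel, 6 of 10 arterial and 8 of 17 matrix genes, and called lower were 10 of 13 sinusoidal genes. The 7 genes of the rule were left out of these counts, and Gja5, Jag1 and Edn1 were left out of the counts by list below. Gja5 had a mean of 240 ± 66.9 CPM (SD, n = 6) in the Vwf endothelial cells against 12 CPM in the others. Jag1 had 343 ± 69.3 CPM against 40.7 CPM, and Edn1 had 369 ± 169 CPM against 26.4 CPM.

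Among the 10 other arterial genes tested, 6 were higher and 1 was lower, with a median log2 fold change of 1.31 against 0.00 over all genes tested. The tyrosine kinase gene Bmx ranged from 28.6 to 53.7 CPM (median 37.4) in the Vwf endothelial cells and from 0.306 to 1.97 CPM (median 1.10) in the others, with no overlap (log2 fold change 5.11 ± 0.36 SE, adjusted p = 1.29e-07, edgeR). Gja4, encoding connexin 37, ranged from 172 to 415 CPM (median 392) against 101 to 151 CPM (log2 fold change 1.48 ± 0.14 SE, adjusted p = 1.99e-06, edgeR). Sox17, a transcription factor of arterial fate, was at 125 to 280 CPM (median 178) against 59.0 to 83.1 CPM (1.52 ± 0.15 on the log2 scale, adjusted p = 4.89e-06, edgeR). The ranges of these 3 genes did not overlap between the 2 cell sets. How many of all genes tested had no overlap between the cell sets was not counted, here or for the genes below. Fbln5, Ltbp4 and the Notch target Hey1 were also higher. The lower gene was Cxcl12. Dll4, the Notch ligand of arterial and sprouting cells, was at 237 ± 113 CPM against 136 ± 43.3 CPM, which passed the adjusted p (0.00106, edgeR) but not the fold (0.78 ± 0.14 on the log2 scale).

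Among 13 venous genes tested, 4 were higher (Bgn, Cdh13, Selp and Thbd) and 2 were lower (Kit and Wnt2), with a median of 0.49. Cdh13, encoding T-cadherin, was at 146 to 310 CPM (median 263) against 29.8 to 96.0 CPM, without overlap (log2 fold change 2.15 ± 0.11 SE, adjusted p = 8.94e-09, edgeR). Selp encodes P-selectin, which is stored in the same granules as von Willebrand factor. It had 79.9 ± 61.9 CPM against 27.2 ± 23.8 CPM and was higher in the Vwf endothelial cells of each of the 6 libraries although the ranges overlapped (1.6 ± 0.18 on the log2 scale, adjusted p = 1.05e-05, edgeR). Wnt2, a Wnt ligand made by endothelium around the central vein, ranged from 6.32 to 55.6 CPM (median 40.7) against 60.3 to 236 CPM (fold change on the log2 scale -1.77 ± 0.40 SE, adjusted p = 0.00465, edgeR). Rspo3, the other Wnt-pathway ligand of the central vein, was spread from 0 to 334 CPM (median 154) against 30.5 to 102 CPM and did not pass (0.80 ± 0.51 on the log2 scale, adjusted p = 0.331, edgeR). Ackr1, the chemokine-binding receptor of venules, did not pass either (43.0 CPM against 33.2 CPM). Venous genes therefore moved in both directions, and Nr2f2 (397 to 1152 CPM against 336 to 657 CPM) overlapped between the cell sets.

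Of 11 large-vessel genes, 8 were higher and none was lower, with a median of 1.70. Adgrg6, an adhesion G protein-coupled receptor, was at 479 to 1205 CPM (median 570) against 35.8 to 77.4 CPM (log2 fold change 3.43 ± 0.17 SE, adjusted p = 5.82e-09, edgeR). Plvap, the protein of the diaphragms that close endothelial fenestrae and caveolae, was at 334 to 670 CPM (median 596) against 75.5 to 277 CPM. Ly6a had 3177 ± 891 CPM against 734 ± 318 CPM, and Cd34, a sialomucin, had 140 ± 62.0 CPM against 49.4 ± 32.5 CPM. The ranges of Adgrg6, Plvap and Ly6a did not overlap, whereas those of Cd34 did.

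Of 13 sinusoidal genes, none was higher and 10 were lower, with a median of -1.45. Stab2 ranged from 27.5 to 187 CPM (median 96.1) in the Vwf endothelial cells and from 413 to 828 CPM (median 661) in the others (-2.62 ± 0.23 on the log2 scale, adjusted p = 1.14e-06, edgeR). Clec4g ranged from 563 to 924 CPM (median 628) against 1489 to 2241 CPM (-1.30 ± 0.14, adjusted p = 6.22e-06, edgeR). The same held for Fcgr2b, the inhibitory receptor that clears immune complexes, at 452 against 1721 CPM, for Dnase1l3, a secreted nuclease, at 546 against 1999 CPM, for Oit3 at 113 against 559 CPM and for Lyve1, the hyaluronan receptor, at 123 against 376 CPM. Stab2 and Clec4g did not overlap between the cell sets, and yet Clec4g remained among the abundant genes of the chosen cells. Of 14 genes common to endothelium, Ecscr was higher and Kdr, encoding VEGF receptor 2, was lower (485 ± 204 CPM against 1733 ± 625 CPM).

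**Figure D2:**
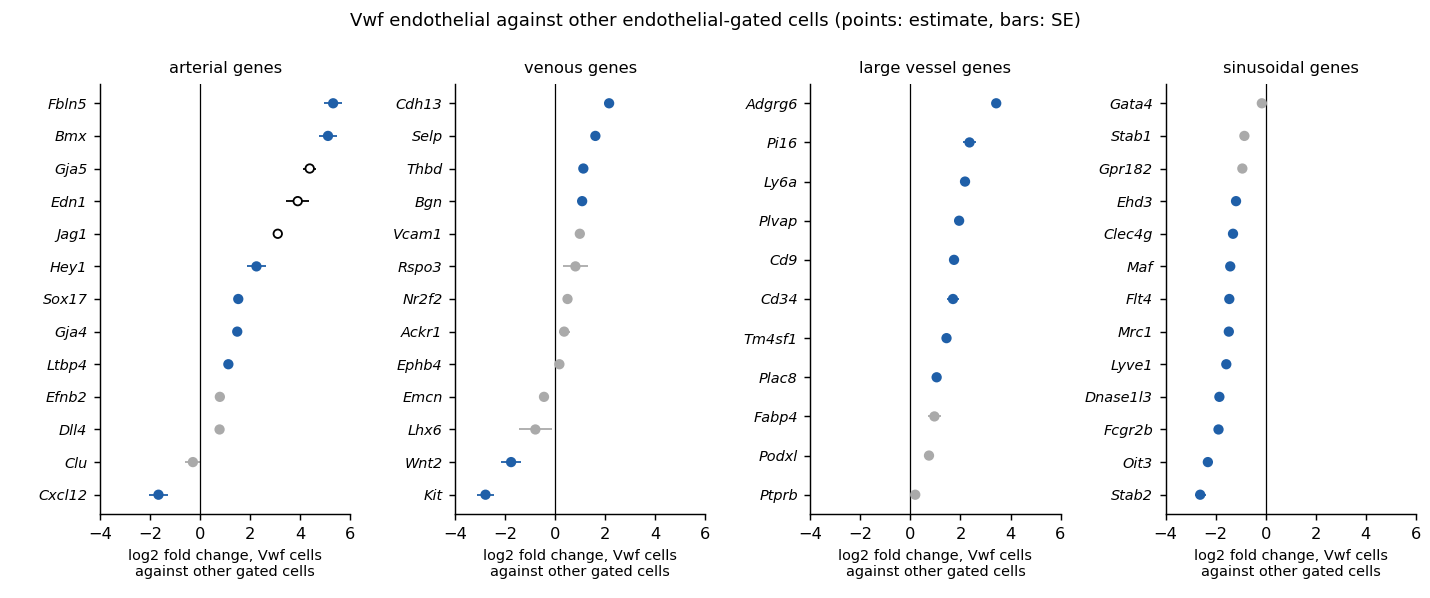
Log2 fold changes of Vwf endothelial cells against other endothelial-gated cells (x axis) for the genes of the arterial, venous, large-vessel and sinusoidal lists (y axis). Points are estimates and bars SE, blue points passed both thresholds and grey points did not, and open black points are Gja5, Jag1 and Edn1, shown as description. No sinusoidal gene was called higher and 10 of 13 were called lower, while 8 of 11 large-vessel genes were called higher.

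Matrix and elastic-fibre genes held several large differences. Of 17 genes, 8 were higher and 1 (Hspg2) was lower, with a median of 0.56. Eln, encoding elastin, ranged from 28.6 to 151 CPM (median 65.9) against 0.306 to 3.42 CPM (log2 fold change 5.09 ± 0.29 SE, adjusted p = 1.38e-08, edgeR). Fbln5, encoding the elastic-fibre protein fibulin-5, ranged from 19.1 to 285 CPM (median 54.2) against 0.612 to 3.17 CPM (5.32 ± 0.35, adjusted p = 5.81e-08, edgeR). Mgp, encoding matrix Gla protein, an inhibitor of vessel calcification, was at 1438, 718 and 92.7 CPM in the vehicle libraries and at 28.6, 43.9 and 154 CPM in the ginkgetin libraries, against a mean of 3.07 CPM in the others. Each of the 6 libraries gave a higher value in the Vwf endothelial cells for these 3 genes, and Mgp spread most between libraries. Fbln2, encoding fibulin-2, had 417 ± 150 CPM against 18.7 ± 6.93 CPM.

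In the haemostasis list, 6 of 15 genes were higher and 2 lower. Plat, encoding tissue plasminogen activator, which starts clot breakdown, ranged from 35.9 to 139 CPM (median 76.3) against 2.14 to 14.9 CPM (log2 fold change 3.80 ± 0.44 SE, adjusted p = 1.67e-05, edgeR). Entpd1, encoding CD39, which degrades the platelet agonist ADP, had 48.8 ± 7.19 CPM against 9.27 ± 2.25 CPM. Thbd (thrombomodulin) and Procr (protein C receptor), which together activate protein C, were at 261 ± 65.0 CPM against 125 ± 35.8 CPM and at 29.2 ± 24 CPM against 6.85 ± 3.73 CPM. The rest of the higher genes were Selp and Cd63, both of the granule membrane. Lower genes were Tfpi, the inhibitor of the tissue factor pathway, at 96.1 ± 40.8 CPM against 225 ± 45.7 CPM, and Angpt2, a Tie2 ligand stored in the granules, at 6.09 ± 7.26 CPM against 46.1 ± 28.5 CPM. F8, encoding coagulation factor VIII, the partner that von Willebrand factor carries in plasma, was at 276 ± 203 CPM against 380 ± 210 CPM and did not pass the fold.

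Of 11 Notch pathway genes other than Jag1, 3 were higher and 1 lower. The ligand gene Dll1 had 58.8 ± 12.2 CPM against 21.8 ± 6.10 CPM, and the Notch target and feedback gene Nrarp had 192 ± 68.9 CPM against 63.4 ± 11.7 CPM. The receptor gene Notch2 was lower, at 7.61 ± 6.29 CPM against 17.4 ± 12.4 CPM, whereas Notch1 and Notch4 did not pass the threshold. Of 14 genes of vessel tone and shear, 4 were higher (Ace, Ddah1, Ednrb and Klf4) and Adm was lower. Ednrb, encoding the endothelin B receptor, had 964 ± 410 CPM against 102 ± 47.7 CPM (log2 fold change 3.28 ± 0.21 SE, adjusted p = 4.23e-08, edgeR). Ace, encoding angiotensin-converting enzyme, had 94.3 ± 30.9 CPM against 9.80 ± 3.76 CPM. Of 12 genes of the VEGF and angiopoietin families, Vegfc, the ligand of VEGF receptor 3, was higher (244 ± 72.4 CPM against 34.1 ± 19.3 CPM), and Angpt2, Esm1, Flt4 and Kdr were lower.

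The remaining lists gave mixed counts. Adhesion and chemokine genes gave 3 higher (Ackr3, Cd34 and Selp) and 3 lower (Cxcl9, Cxcl10 and Cxcl12) of 12. The TGF-beta and BMP list gave Acvrl1 and Id1 higher and Bmp2 lower of 13, and lipid uptake gave 1 higher of 13. No gene of 17 for antigen presentation and interferon passed. The stress and immediate early list gave 5 higher of 16, namely Atf3, Egr1, Fosb, Ier2 and Ier3. By fold alone, the largest rises among genes above 50 CPM were those of Mgp (6.31 on the log2 scale), Syt15 (6.18), Col8a1 (5.91) and Spon1 (5.88). Npr3, the clearance receptor of natriuretic peptides, was at 113 to 416 CPM (median 163) against 0.621 to 9.06 CPM, and Nrg1, encoding neuregulin-1, was at 160 to 661 CPM (median 251) against 6.21 to 14.3 CPM. Neither Npr3 nor Nrg1 overlapped between the cell sets.

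Markers of other cells moved in this comparison too, and their part in it was not tested. By fold alone, the largest falls were led by leukocyte genes such as Siglech, Ly6d, Jchain and Cd79a, and all 8 lymphocyte markers tested, 7 of 11 hepatocyte markers and 5 of 9 cell cycle genes were lower in the Vwf endothelial cells, while none of 6 macrophage markers passed. Of the other endothelial-gated cells, 5.13% to 26.9% held 2 or more UMIs of immune genes, against 4.35% to 14.5% of the Vwf endothelial cells. No Cdh5 UMI was held by 13.1% to 20.8% of the others and by 0% to 17.4% of the Vwf endothelial cells. Leaving out the cells with immune UMIs gave 283 higher and 321 lower genes, and requiring a Cdh5 UMI gave 281 higher and 319 lower. Among the chosen cells of the 6 libraries, the summed macrophage markers ranged from 125 to 1470 CPM, with the highest value in ginkgetin replicate 1. The hepatocyte sum ranged from 66.8 to 617 CPM, the lymphocyte sum from 56.8 to 543 CPM and the stellate cell sum from 89.0 to 216 CPM. The lymphatic markers Pdpn, Mmrn1 and Ccl21a were at or near 0, and the lymphatic sum was at most 16.9 CPM. The megakaryocyte sum, which would accompany Vwf from platelets and their precursors, was at most 19.1 CPM.

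The chosen cells were not uniform. A cell was said to have arterial features if its summed UMIs of 12 arterial genes were at least 2 and exceeded those of 11 venous genes, and sinusoidal features if 6 sinusoidal genes summed to at least 5 UMIs. The arterial sum left out Edn1, Jag1 and Cxcl12 of its list, of which Cxcl12 was called lower in the Vwf endothelial cells. The venous sum left out Lhx6, Cpe, Emcn and Kit, of which Kit was called lower. Arterial features were found in 241 of 489 cells (49.3%), sinusoidal features in 407 (83.2%), both in 203 (41.5%) and neither in 44 (9.0%). By the mirrored limit, a venous sum of at least 2 that exceeded the arterial sum, 216 of the 489 cells leaned venous. They were 55, 16 and 33 cells in the vehicle libraries and 8, 71 and 33 in the ginkgetin libraries. Venous-leaning cells were not counted among the other endothelial-gated cells. By the same limits, 2048 of the 8254 other endothelial-gated cells had arterial features (21.4% to 32.6% by library) and 7264 had sinusoidal features (77.4% to 94.2%). These are ranges on a scale and no cell types: in 84 cells (17.2%) the arterial and venous sums lay within 1 UMI of each other, and Ltbp4 alone gave 41.4% of the arterial sum. After each cell was thinned to 1000 UMIs at random, as a mean of 100 draws, arterial features were found in 32.3% to 51.1% of the cells by library and sinusoidal features in 14.5% to 34.8%.

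Detection of single genes within the Vwf endothelial cells showed which genes occurred together. In the 266 cells with a Gja5 UMI, Bmx was detected in 27.1% against 7.6% of the 223 cells without it, Fbln5 in 30.8% against 10.3% and Eln in 38.0% against 15.2%. Rspo3 went the other way, at 1.1% with Gja5 and 10.8% without, as did Wnt2 at 4.9% and 15.2% and Kit at 3.4% and 10.3%. The cells with Gja5 had a median of 6282 UMIs against 4396, and the part of depth in these shares was not tested.

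A set of 27 cells held an Rspo3 UMI, with 5, 1 and 7 cells in the vehicle libraries and 2, 12 and 0 in the ginkgetin libraries. Wnt2 was detected in 66.7% of them against 6.3% of the other 462 cells, the stem cell factor receptor gene Kit in 51.9% against 3.9% and Selp in 63.0% against 24.5%. Gja5 was found in 11.1% against 56.9%, Ednrb in 25.9% against 77.7% and Adgrg6 in 22.2% against 85.5%. Median depth was 6807 UMIs against 5496.

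A set of 71 cells held an Mgp UMI, with 26, 8 and 13 cells in the vehicle libraries and 1, 5 and 18 in the ginkgetin libraries. Of these cells, 74.6% had Fbln5 against 12.4% of the other 418, 59.2% had Eln against 22.2%, 60.6% had Selp against 20.8% and 80.3% had Cd34 against 43.8%. Gja5 was found in 77.5% against 50.5%, and the sinusoidal genes Stab2 (14.1% against 39.7%) and Clec4g (66.2% against 90.7%) were less often found. The cells with Mgp were also deeper (median 7656 against 5231 UMIs). Selp was found more often in both sets than in their remaining cells, whereas Gja5 was found less often in the cells with Rspo3 and more often in those with Mgp. These are descriptions over cells pooled from the libraries, with no test.

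**Figure D3:**
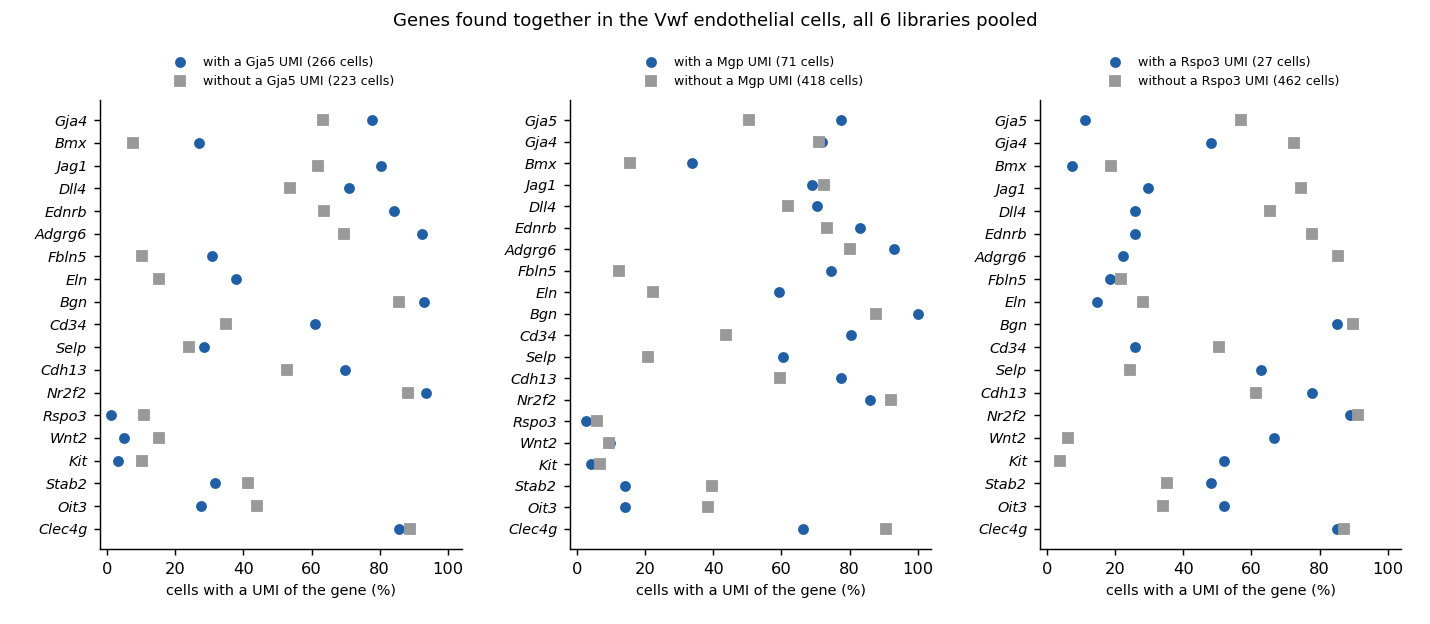
Share of Vwf endothelial cells with a UMI of each gene (x axis, percent) among cells with (blue circles) and without (grey squares) a UMI of Gja5, Mgp or Rspo3, pooled over the 6 libraries. Among the 27 cells with Rspo3, Wnt2 was detected in 66.7% and Gja5 in 11.1%, and among the 71 cells with Mgp, Fbln5 was detected in 74.6%.

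Whether ginkgetin went with a different number of Vwf endothelial cells was examined by their share in each library. They made up 1.75%, 0.929% and 2.18% of the kept cells in the vehicle libraries and 0.658%, 2.0% and 2.80% in the ginkgetin libraries, so the groups overlapped (difference 0.201 percentage points, exact permutation p = 0.9). Of the endothelial-gated cells, they made up 8.09%, 5.49% and 18.3% in the vehicle libraries and 1.78%, 3.75% and 7.18% in the ginkgetin libraries. This share was 10.6% ± 6.77 (SD, n = 3) over the vehicle libraries and 4.24% ± 2.73 over the ginkgetin libraries, lower in ginkgetin for each replicate number, but with overlap between the groups (difference -6.38 percentage points, two-sided exact permutation p = 0.2). The difference was -2.55 points without vehicle replicate 3, -4.02 points in replicates 1 and 2 and -11.1 points in replicate 3. Endothelial-gated cells with at least 1000 UMIs were thinned to 1000 UMIs, which left out 5 cells of vehicle replicate 3 and 10 of ginkgetin replicate 3. The share with a Vwf UMI was then 7.36% ± 2.79 against 3.31% ± 1.67 (difference -4.05 percentage points, exact permutation p = 0.2), and it was 0% to 0.144% in T cells thinned alike. Arterial features were found in 41.0%, 35.5% and 57.8% of the Vwf endothelial cells in the vehicle libraries and in 52.2%, 41.3% and 64.7% in the ginkgetin libraries (difference 7.99 percentage points, exact permutation p = 0.4), higher in ginkgetin for each replicate number but with overlap between the groups, and sinusoidal features in 80.5% ± 14.1 and 78.1% ± 18.7 (exact permutation p = 0.8). Thinned to 1000 UMIs, as a mean of 100 draws, arterial features were found in 33.8%, 32.3% and 44.7% of the cells in the vehicle libraries and in 35.2%, 38.9% and 51.1% in the ginkgetin libraries, so the groups overlapped (difference 4.79 percentage points, exact permutation p = 0.5). Over the 5 shares the adjusted p-values ranged from 0.5 to 0.9, and with 3 libraries against 3 no exact p can fall below 0.1. A share can change through the Vwf endothelial cells or through the cells counted beside them, and these cannot be told apart.

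The arterial marker levels were then compared between the groups. Gja5 was at 255, 202 and 197 CPM in the vehicle libraries and at 191, 226 and 367 CPM in the ginkgetin libraries, with overlap. Jag1 was at 277, 273 and 294 CPM and at 391, 401 and 424 CPM. Edn1 was at 469, 439 and 76.5 CPM and at 296, 560 and 377 CPM. Jag1 was higher in every ginkgetin library than in every vehicle library, where 573 genes (8.53%) did not overlap between the groups in either direction, and it did not pass the test (0.52 ± 0.30 on the log2 scale, adjusted p = 1.0, edgeR). Vwf itself, which chose the cells, was at 891, 741 and 731 CPM and at 697, 788 and 944 CPM.

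Across all genes, edgeR without a block called 0 of 6710 (0.0%) between ginkgetin and vehicle in the Vwf endothelial cells, although 263 genes had p-values below 0.05 before adjustment and the lowest adjusted p was 0.0605. DESeq2 called 13 genes (5 higher, 8 lower) and limma-voom called 0. Libraries with the same replicate number deviated from their group means together (correlations over genes 0.185, 0.223 and 0.578). Replicates 1 and 2 also correlated across numbers (0.169 for vehicle replicate 2 with ginkgetin replicate 1 and 0.126 for vehicle replicate 1 with ginkgetin replicate 2), so the barcode set and the number cannot be told apart in this. Deviations from a group mean cancel over its 3 libraries, so the values for replicates 1 and 2 are not separate from that for replicate 3. With the replicate number as a block edgeR called 43 genes, 15 higher and 28 lower in ginkgetin (0.641%). The calls below are those of the blocked fit, and none of them passed in the unblocked edgeR fit above. Without a block, 29 of the 43 genes were called when low counts were not filtered and 13 by DESeq2. With the block and without replicate pair 1, 2 or 3, edgeR called 36, 98 and 56 genes, which held 28, 41 and 22 of the 43. With the block and without the cells with immune UMIs it called 51, which held 41. Over 27 alternatives none of the 1114 log2 fold changes obtained for these 43 genes had the other sign, and their adjusted p-values ranged from 1.00e-11 to 1.0 (edgeR, DESeq2 or limma). These alternatives refit the counts from which the genes were chosen, and the rate of sign changes over all genes was not counted. A change per cell and a change in which cells make up the chosen set cannot be told apart in these sums.

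Genes of the stress response moved apart from each other. Of 16 genes of the stress and immediate early list, 2 heat shock genes were lower and 3 immediate early genes were higher in ginkgetin with the block. Hspa1a, encoding the inducible chaperone HSP70, was at 1315, 664 and 467 CPM in the vehicle libraries and at 229, 45.5 and 62.1 CPM in the ginkgetin libraries. Without the block its log2 fold change was -3.08 ± 0.69 SE (adjusted p = 0.359, edgeR), and with it -3.09 ± 0.26 SE (adjusted p = 5.89e-05, edgeR). Hspa1b, its near-identical neighbour, was at 856, 836 and 580 CPM and at 191, 23.6 and 76.8 CPM (adjusted p = 0.334 without and 0.00116 with the block, edgeR). The groups did not overlap for either gene, and how reads were divided between these near-identical copies is uncertain. Hspb1, which encodes the small heat shock protein HSP27 and was added after its values were seen, was at 1366, 635 and 387 CPM and at 401, 96.1 and 141 CPM, so that the groups overlapped by a narrow margin (-1.96 ± 0.24 with the block, adjusted p = 0.00139, edgeR).

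The promoter windows of these 3 heat shock genes are shown because the genes moved together. Capitals mark GAANNTTC, a core of the element bound by heat shock factor, searched on both strands (it reads the same on either).

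Hspa1a, chr17:34972157-34972406, minus strand: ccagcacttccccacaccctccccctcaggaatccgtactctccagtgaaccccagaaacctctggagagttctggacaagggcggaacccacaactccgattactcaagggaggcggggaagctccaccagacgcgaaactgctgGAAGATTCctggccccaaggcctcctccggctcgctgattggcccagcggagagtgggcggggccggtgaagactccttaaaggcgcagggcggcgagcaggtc
Hspa1b, chr17:34959239-34959488, minus strand: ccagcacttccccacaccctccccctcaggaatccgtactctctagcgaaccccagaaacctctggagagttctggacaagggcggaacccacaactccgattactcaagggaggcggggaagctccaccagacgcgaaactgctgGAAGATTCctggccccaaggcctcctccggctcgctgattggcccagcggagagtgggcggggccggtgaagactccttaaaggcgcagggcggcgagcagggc
Hspb1, chr5:135887669-135887918, plus strand: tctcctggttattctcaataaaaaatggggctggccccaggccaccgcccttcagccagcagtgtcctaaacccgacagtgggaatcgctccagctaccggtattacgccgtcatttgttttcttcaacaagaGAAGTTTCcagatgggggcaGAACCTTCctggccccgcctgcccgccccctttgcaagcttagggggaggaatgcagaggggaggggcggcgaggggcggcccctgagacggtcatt

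Each window held the letters, 1 time in Hspa1a and in Hspa1b and 2 times in Hspb1, whereas 6.69% of all windows held them. The Hspa1a and Hspa1b windows were identical at 247 of 250 bases.

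The immediate early genes Egr1, Fos and Fosb, whose transcription factors are made within minutes of stimulation, ran in the opposite direction. Egr1 was at 216, 243 and 479 CPM in the vehicle libraries and at 496, 825 and 1282 CPM in the ginkgetin libraries (1.45 ± 0.19 on the log2 scale with the block, adjusted p = 0.00202, against 0.679 without, edgeR). Fosb was at 45.1, 107 and 181 CPM and at 573, 346 and 519 CPM (2.17 ± 0.34 with the block, adjusted p = 0.00648, edgeR). Fos was at 738, 830 and 1233 CPM and at 1861, 1595 and 2216 CPM. None of these 3 genes overlapped between the groups. The 3 heat shock genes, Egr1 and Fosb were called with the block whichever replicate pair was left out, whereas Fos was not called without pair 1. In the other endothelial-gated cells the differences had the same direction: Hspa1a had 548 ± 169 CPM in vehicle and 90.5 ± 73.3 CPM in ginkgetin, and Fosb had 43.9 ± 33.3 CPM and 148 ± 31.6 CPM. The test of a different response in the Vwf endothelial cells did not pass for Hspa1a (-0.07 ± 0.31 on the log2 scale) or for Fosb (0.25 ± 0.30).

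Cyp1a1 and Gstp1, genes of detoxification, were higher with the block. Cyp1a1, a cytochrome P450 that metabolises aromatic compounds and is switched on by the aryl hydrocarbon receptor, had 13, 0 and 26 UMIs in the vehicle libraries and 11, 69 and 283 UMIs in the ginkgetin libraries. These were 25.5, 0 and 30.1 CPM and 105, 116 and 298 CPM, without overlap (log2 fold change 3.10 ± 0.39 SE with the block, adjusted p = 0.00139, against 0.205 without, edgeR). In the other endothelial-gated cells Cyp1a1 was nearly absent, at 0.164 ± 0.285 CPM in vehicle and 3.53 ± 3.11 CPM in ginkgetin. The hepatocyte sum in the Vwf endothelial cells was 149, 368 and 556 CPM in the vehicle libraries and 66.8, 617 and 75.8 CPM in the ginkgetin libraries, and its part in the Cyp1a1 values was not tested. Gstp1, encoding a glutathione transferase, was at 53.0, 94.9 and 75.3 CPM and at 143, 376 and 271 CPM (1.78 on the log2 scale with the block, adjusted p = 0.00202, edgeR). Its values did not overlap between the groups either, and for both genes the lack of overlap was part of the rule that picked them. Cyp1a1 and Gstp1 were called with the block whichever replicate pair was left out.

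The window before the Cyp1a1 start is shown because this gene was low in vehicle and higher in each ginkgetin library. It lies within the span annotated for the gene (chr9:57687928-57703824), which begins further upstream. Capitals mark GCGTG, the core bound by the aryl hydrocarbon receptor complex, searched on both strands.

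Cyp1a1, chr9:57697363-57697612, plus strand: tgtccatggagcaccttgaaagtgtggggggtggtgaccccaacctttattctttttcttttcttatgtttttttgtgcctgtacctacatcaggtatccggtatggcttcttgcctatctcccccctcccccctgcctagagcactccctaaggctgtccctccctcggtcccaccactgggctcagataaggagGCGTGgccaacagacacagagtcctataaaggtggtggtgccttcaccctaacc

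The window held GCGTG 1 time, 54 to 50 bases before the start, and 28.2% of all windows held it.

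Some venous and adhesion genes were lower. With the block, 2 of 12 venous genes tested (Ackr1 and Selp) and 3 of 9 adhesion and chemokine genes (Ackr1, Cxcl10 and Selp) were called lower and none higher. Ackr1 was at 45.1, 53.4 and 95.0 CPM in the vehicle libraries and at 19.1, 20.2 and 25.3 CPM in the ginkgetin libraries (-1.71 ± 0.34 on the log2 scale with the block, adjusted p = 0.0307, against 0.436 without, edgeR). Selp was at 88.3, 59.3 and 198 CPM and at 38.2, 27.0 and 68.4 CPM. Ackr1 did not overlap between the groups and Selp did, and the counts behind Ackr1 were small, with 2 to 24 UMIs in the ginkgetin libraries. With the block, Ackr1, Selp and Cxcl10 were not called without replicate pair 3, and Selp was not called without pair 1. Cxcl10, an interferon-induced chemokine, was at 92.2, 89.0 and 503 CPM and at 57.3, 25.3 and 70.5 CPM. Of 17 antigen presentation and interferon genes, only Ifi44 was called lower with the block. The venous factor Nr2f2 was at 444, 397 and 633 CPM and at 611, 869 and 1152 CPM and did not pass (adjusted p = 0.0686 with the block, edgeR).

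Of 9 lipid-handling genes, 2 were called lower with the block and none higher. Abca1, which exports cholesterol to apolipoproteins, was at 165, 83.0 and 257 CPM in the vehicle libraries and at 19.1, 30.4 and 38.9 CPM in the ginkgetin libraries (-2.40 ± 0.32 on the log2 scale with the block, adjusted p = 0.00205, against 0.147 without, edgeR). Fabp5, a fatty acid binding protein gene, was at 1268, 813 and 925 CPM and at 582, 444 and 278 CPM. Its relative Fabp4 was at 5222, 4063 and 4861 CPM and at 2701, 2636 and 2098 CPM, with an adjusted p of 0.00648 with the block (edgeR) and a fold under 2. None of the 3 genes overlapped between the groups. Other genes lower with the block were Ctla2a (704, 474 and 437 CPM against 210, 82.6 and 79.0 CPM), the cell cycle inhibitor Cdkn1c (245, 178 and 544 CPM against 124, 70.8 and 125 CPM) and Lrg1, a glycoprotein of vessel growth (687, 540 and 372 CPM against 95.4, 167 and 212 CPM). Fkbp5, a target of the glucocorticoid receptor that was added after its values were seen, was at 66.7, 59.3 and 85.8 CPM against 9.54, 13.5 and 14.7 CPM, with 1, 8 and 14 UMIs in the ginkgetin libraries. With the block, Fabp5, Cdkn1c and Fkbp5 were not called without replicate pair 3.

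No gene of the arterial, Notch, matrix, sinusoidal, large-vessel, vessel tone, VEGF or TGF-beta lists was called with the block. Sox17 was at 147, 125 and 174 CPM in the vehicle libraries and at 181, 280 and 267 CPM in the ginkgetin libraries, without overlap and without passing. Fbln5 was at 285, 107 and 57.9 CPM and at 19.1, 25.3 and 50.5 CPM (-2.20 on the log2 scale, adjusted p = 0.679 without and 0.231 with the block, edgeR). Cells with an Mgp UMI were 26 of 105, 8 of 31 and 13 of 90 in the vehicle libraries and 1 of 23, 5 of 138 and 18 of 102 in the ginkgetin libraries, and whether the chosen cells differed in makeup was not tested. The leukocyte gene Cybb, added after its values were seen, was at 19.6, 17.8 and 1.16 CPM and at 181, 21.9 and 16.8 CPM, and its highest value came from ginkgetin replicate 1, the library with the highest macrophage sum (1470 CPM).

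**Figure D4:**
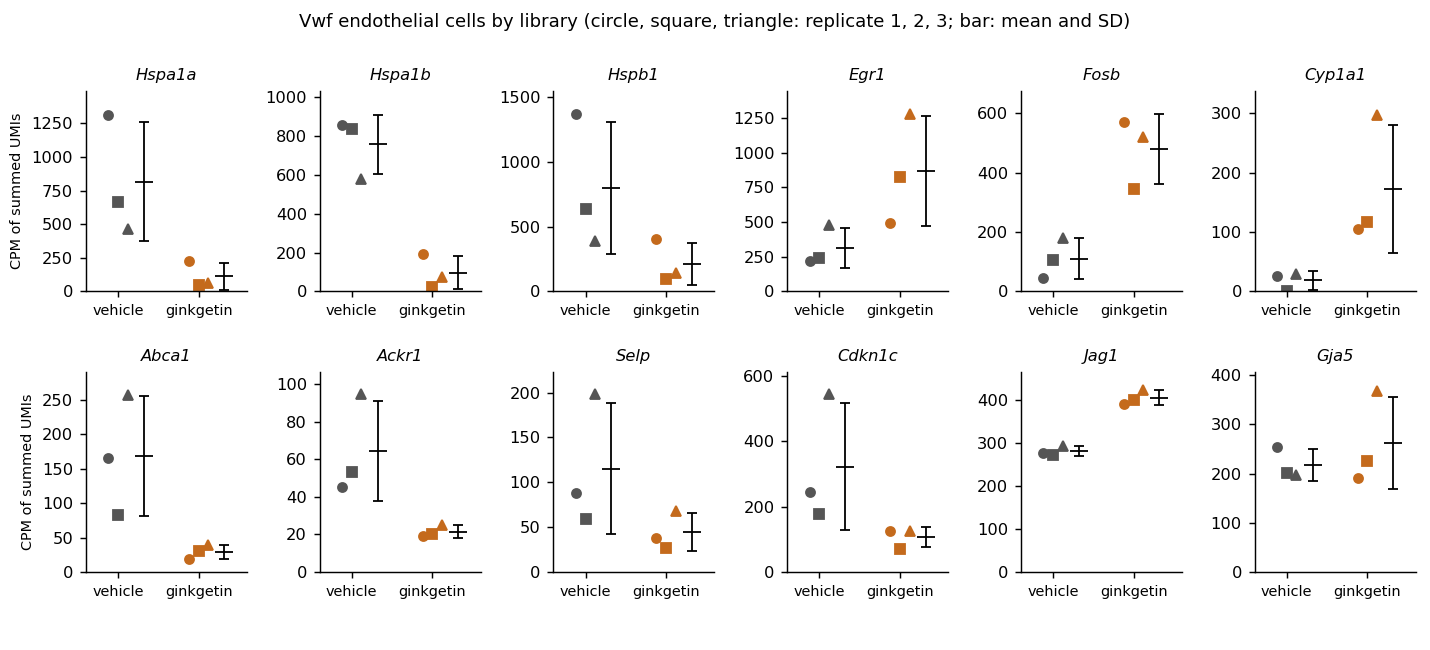
Levels of 12 genes in the Vwf endothelial cells of each library (y axis, CPM of summed UMIs) in the vehicle and ginkgetin groups (x axis). Circles, squares and triangles are replicates 1, 2 and 3, and bars are mean and SD. Hspa1a lay between 467 and 1315 CPM in vehicle and between 45.5 and 229 CPM in ginkgetin, and none of the genes was called in the edgeR fit without a block after the low-count filter.

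The last comparison asked whether the difference between ginkgetin and vehicle was itself different in the Vwf endothelial cells and in the other endothelial-gated cells. The interaction test of edgeR called 20 of 9932 genes (0.201%), 16 with the more positive change in the Vwf endothelial cells. It called 1 gene with the replicate number in place of the library as the block. Leaving out vehicle replicates 1, 2 and 3 in turn gave 12, 38 and 13 genes, and leaving out ginkgetin replicates 1, 2 and 3 gave 9, 13 and 17. Fabp4, a fatty acid binding protein, had 4715 ± 593 CPM in vehicle and 2478 ± 331 CPM in ginkgetin (SD, n = 3) in the Vwf endothelial cells, while in the others it had 4387 ± 1146 CPM and 728 ± 125 CPM. Its interaction was 1.76 ± 0.16 SE on the log2 scale (adjusted p = 0.000131, edgeR). Cd36, the fatty acid translocase, had 867 ± 112 CPM and 998 ± 378 CPM in the Vwf endothelial cells against 1052 ± 165 CPM and 451 ± 199 CPM in the others, an interaction of 1.55. Both genes were thus lower in ginkgetin in the other cells, whereas Fabp4 was lower by less and Cd36 overlapped between groups in the Vwf endothelial cells. Vegfc was at 200, 160 and 294 CPM in vehicle and at 239, 209 and 360 CPM in ginkgetin in the Vwf endothelial cells, with means of 48.6 CPM and 19.5 CPM in the others (interaction 1.71, adjusted p = 0.0125, edgeR). Cd34 was at 120, 130 and 172 CPM and at 47.7, 137 and 236 CPM in the Vwf endothelial cells, with means of 71.1 CPM and 27.7 CPM in the others (interaction 1.57, adjusted p = 0.0266, edgeR). Slco2a1, a prostaglandin transporter gene, ran in the opposite direction, with 349, 344 and 189 CPM and with 277, 209 and 379 CPM in the Vwf endothelial cells and means of 80.0 CPM and 229 CPM in the others (interaction -1.40). Flrt2 was also called for the interaction (1.70) and was at 49.1, 35.6 and 49.8 CPM in the vehicle libraries and at 95.4, 172 and 230 CPM in the ginkgetin libraries in the Vwf endothelial cells. Leaving out the cells with immune UMIs raised the number of interaction genes to 70 and leaving out the cells with no Cdh5 UMI raised it to 32, and the part of the makeup of the other cells was not tested.

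**Figure D5:**
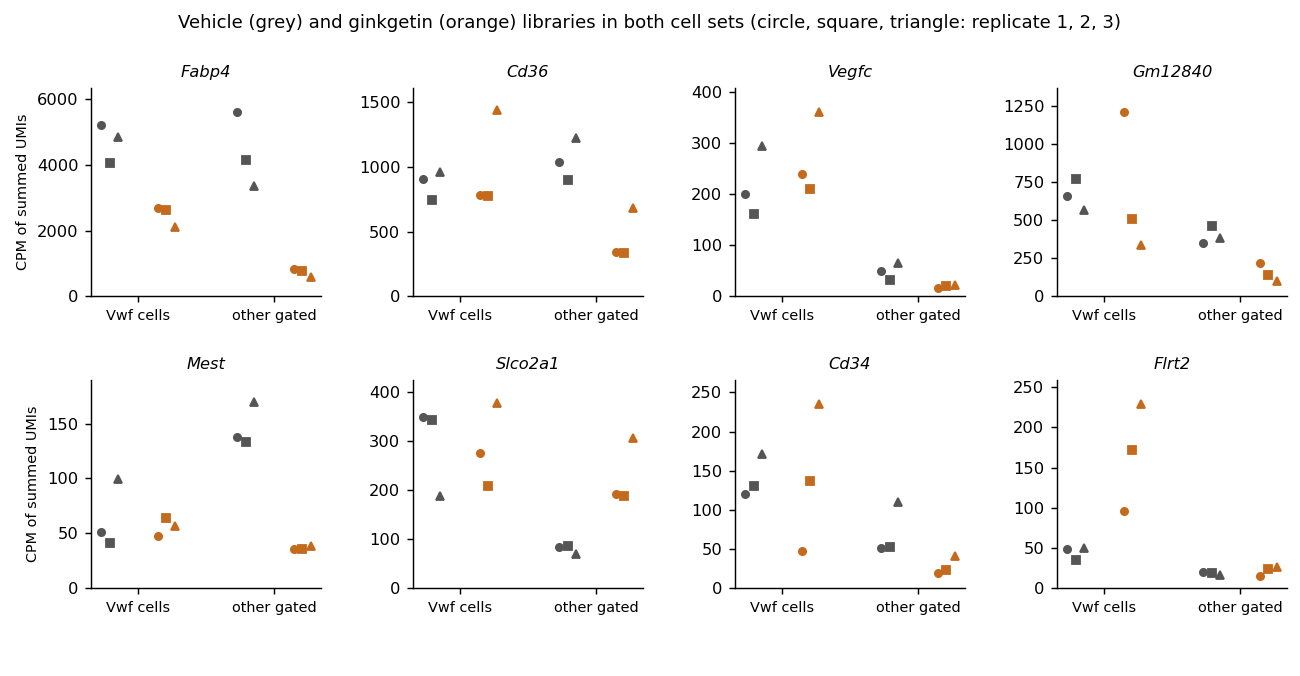
Levels of 8 genes called for the interaction (y axis, CPM of summed UMIs) in Vwf endothelial cells and in other endothelial-gated cells (x axis). Grey points are vehicle and orange points ginkgetin libraries, with circles, squares and triangles for replicates 1, 2 and 3. Fabp4 in the other cells went from a mean of 4387 to 728 CPM and in the Vwf endothelial cells from 4715 to 2478 CPM.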

How the data were processed

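Per the labels, the 6 libraries are 10X Genomics libraries of liver tissue, although the extraction text names a kit for total RNA. The authors deposited UMI counts per gene and cell, without normalization. The submitters' processing notes name GRCm38 and mm10; the aligner and annotation are not given in the sources used here. The study states UMI limits of 250 and 5000 and a mitochondrial limit of 5%. Here, 302 symbol pairs were merged between the gene sets and 554 genes found in 1 set were left out. No doublet caller was run. UMI counts were summed per library and cell set and tested with edgeR 4.0.16 in R 4.3.3 (filterByExpr, TMM, quasi-likelihood test, all genes adjusted together by Benjamini-Hochberg), after a check on simulated counts. That check drew counts with 1 fixed dispersion and no replicate effect, and it did not cover the group fit with the replicate block. CPM used the summed UMIs of the genes retained. DESeq2 1.42.0, limma 3.58.1 (voom), other filters, blocks and cell limits were alternatives. Shares were compared by two-sided exact permutation tests (SciPy 1.17.1). The planned main fit between the groups had no block. The replicate block was used because same-numbered libraries correlated at 0.185, 0.223 and 0.578 after group means were removed, above the limit set for pairing, although replicates 1 and 2 also correlated across numbers (0.169 and 0.126). Since deviations cancel within a group, these correlations do not give separate support for each pair. The members and lists were chosen with earlier results of these data known. Besides list genes, named genes were drawn from those of largest fold or lowest p: 10 in each direction between groups at a mean of 50 CPM or more without overlap (lowest p where none was called), 12 in each direction against the other cells, and 6 for the interaction. Not all of these genes are named in the text. Hspb1, Fkbp5 and Cybb were added after their values were seen. Library and summed depths are given in the report.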

Additional observations from a re-analysis of the deposited data

Results flagged for a closer look

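The difference between the ginkgetin and vehicle libraries was itself tested for a difference between the Vwf endothelial cells and the other endothelial-gated cells, and 20 genes passed (edgeR interaction, Benjamini-Hochberg adjusted p under 0.05 and fold over 2). For the 6 genes of lowest p, the interaction on the log2 scale was 1.76 for Fabp4, 1.55 for Cd36, 1.71 for Vegfc, 1.35 for Gm12840, 1.90 for Mest and -1.40 for Slco2a1. In the Vwf endothelial cells Gm12840 was at 657, 771 and 569 CPM in the vehicle libraries and at 1212, 508 and 336 CPM in the ginkgetin libraries, so that ginkgetin replicate 1 lay above and the other ginkgetin libraries below every vehicle library. In the others its means were 398 CPM and 156 CPM, and without ginkgetin replicate 1 its interaction was 1.18 (adjusted p = 0.0475, edgeR). Mest, an imprinted gene, was at 51.0, 41.5 and 99.7 CPM and at 47.7, 64.1 and 56.8 CPM in the Vwf endothelial cells, and had means of 147 CPM and 36.8 CPM in the others. Fabp4 passed in 22 of 22 alternatives, Cd36 in 21, Gm12840 in 19, and Vegfc, Mest and Slco2a1 in 17 each. Mest and Slco2a1 were not called without vehicle replicate 1 or without ginkgetin replicate 2.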

How the results depend on the processing

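Depth was lowest in ginkgetin replicate 1 with 23 Vwf endothelial cells and in vehicle replicate 2 with 31. Between ginkgetin and vehicle, edgeR called 0 genes without a block and 0 in each fit that left out 1 library. The alternatives gave 63 genes without the filter on low counts, 13 with DESeq2, 24 in replicates 1 and 2 only, 43 with the replicate block, 49 with the barcode set as a block, 47 with the stated UMI range (replicates 1 and 2 only, since replicate 3 kept 5 and 0 Vwf endothelial cells), and 2 each with no filter on cells, without cells with immune UMIs, without cells with Stab2 and without the deepest 5% of cells. With the replicate block, leaving out replicate pair 1, 2 or 3 gave 36, 98 and 56, and leaving out cells with immune UMIs gave 51. These 4 fits, and those on Stab2, Cdh5, arterial features and the deepest cells, were chosen after seeing the data. Against the other endothelial-gated cells, 738 genes were called and 1371 without the low-count filter. Of the interaction, 20 genes were called, 94 without the low-count filter, 7 with DESeq2, 34 with voom, 1 with the replicate block in place of the library, 5 each with at least 1 or at least 3 Vwf UMIs, 70 without cells with immune UMIs, 40 for the Vwf endothelial cells with arterial features, 52 without the deepest 5% and 32 with a Cdh5 UMI required. Leaving out 1 library gave 9 to 38, with 9 without ginkgetin replicate 1 and 38 without vehicle replicate 2. The difference in the share of kept cells was 0.201 percentage points and became -0.331 with the stated UMI range, -2.76 without cells with immune UMIs, -0.0105 in replicates 1 and 2, and -0.290 to 0.781 with 1 library left out. The difference in sinusoidal features was -2.37 points and became 2.18 with at least 3 Vwf UMIs, 2.48 in replicate 3 and -12.3 to 6.24 with 1 library left out, as well as -14.4 with the stated UMI range, again in replicates 1 and 2 only. With cells thinned to 1000 UMIs it was -7.24 in 1 random draw (exact permutation p = 0.1, the smallest possible) and -6.54 as a mean of 100 draws (exact permutation p = 0.4), and the mean was taken after seeing that draws differed. The difference in arterial features was 7.99 points and ranged from 2.0 without ginkgetin replicate 3 to 14.5 without vehicle replicate 3. The difference in the share of endothelial-gated cells ranged from -8.95 to -2.55 with 1 library left out and was -3.67 with the stated UMI range. The difference in the share with a Vwf UMI in cells thinned to 1000 UMIs was -4.05, and it was -4.23 with no filter on cells and -6.32 in cells thinned to 2000 UMIs. At -3.67, -4.23 and -6.32 the groups did not overlap (exact permutation p = 0.1, the smallest possible). No direction changed among the 20 genes between groups, the 24 against the other cells and the 6 for the interaction that were taken by fold or p. This does not cover the other genes named above. Against the other cells the library was already the block. The cause of each change was not tested.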
